A study of Agaricus bisporus with 12 samples.

Results

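The comparison described here set the mycelium of the button mushroom Agaricus bisporus at pinning, when the first primordia form, against the same mycelium at the end of vegetative growth through compost. It set 2 pinning libraries against 2 spawning libraries, 4 of the 12 RNA-seq libraries of the series, chosen by their labelled stage. The fit behind the tests took its spread from all 12 libraries, so each SE and p rests on the other 4 stages as well. All were made from total RNA of colonised compost, so they hold the mycelium that feeds the crop and not mushrooms picked from the bed. Both stages carried A15, a commercial heterokaryon strain (its cells hold nuclei of both parents), grown on composted wheat straw with horse and chicken manure. The spawning libraries were taken after 16 days of colonisation at 25 °C. The pinning libraries came after the compost had been covered with a casing of peat and lime, and the labels give them a stage but no day or temperature. The casing and the time that had passed therefore cannot be told apart from primordium formation. The labels do not say whether the replicates are separate cultures, so every p-value is set against the spread between libraries alone, which may be technical.

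During colonisation the fungus behaves as a litter decomposer that secretes laccase, peroxidases, esterases and proteases, digests straw and microbial biomass, and takes up sugars, peptides and ammonium. Pinning follows casing, aeration and cooling in cultivation. Hyphae then aggregate into knots that become primordia, and the compost mycelium turns into the supply line that exports carbon, water and nitrogen to the growing caps. In bulk RNA a gene that is lower at pinning may come from fewer cells of one kind or from less RNA per cell, and these cannot be told apart.

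The spawning libraries held 7.27 and 7.43 M uniquely mapped reads (M for mega) and the pinning libraries 9.02 and 8.48 M, within the range of 7.27 to 9.34 M over the series. Between 9189 and 9270 genes had at least 1 read in each of the 12 libraries, of 9502 genes listed in all. A description taken from a named protein or a close KEGG match was available for 3923 of them (41.3%), and the names used below are those annotations. Levels are RPKM, read counts scaled by gene length and by the reads of the library, given for replicate 1 and then replicate 2 of each stage. Changes are log2 of pinning over spawning after TMM scaling, with their standard error (SE) and the adjusted p of edgeR's quasi-likelihood test. Because library totals alone would move the median change of all genes from 0.05 to 0.18, an RPKM ratio reads slightly higher than the scaled change beside it. In each gene given with 4 library values the RPKM of the stages did not overlap, whether or not the gene passed the test.

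The move to pinning touched a large part of the measured transcriptome. Of 8814 genes tested, 4799 (54.4%) were called at an adjusted p under 0.05. They divided into 2579 higher at pinning (29.3%) and 2220 lower (25.2%). Changes past 2-fold numbered 1310 higher and 1035 lower. The largest changes were more often falls, with 43 genes higher and 97 lower past 8-fold, and 5 higher and 14 lower past 32-fold. Replicates of a stage correlated at 0.991 and 0.992 on the log2 CPM scale, against 0.906 to 0.914 between stages. Of 3872 described genes tested, 33.1% were higher and 27.2% lower, against 26.3% and 23.6% of 4942 undescribed ones.

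**Figure D1:**
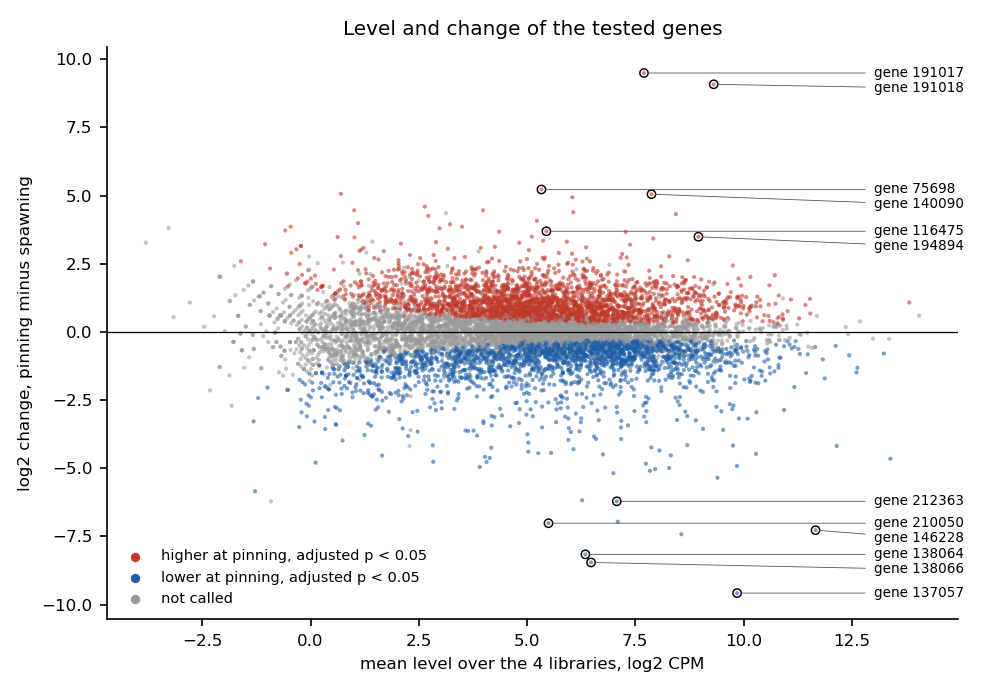
Each point is 1 of the tested genes, with its mean log2 CPM over the 4 libraries on the x axis and its log2 change from spawning to pinning on the y axis; red points were called higher at pinning, blue points lower and grey points neither, and 12 genes are circled and labelled. Genes called in both directions lie at every level, and among abundant genes the points far from 0 lie mostly below it.

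The share of reads held by the most abundant genes was lower at pinning. A share of 50% of all reads fell on 420 and 398 genes in the spawning libraries and on 475 and 482 at pinning, and the 100 most abundant genes took 27.4% and 28.2% against 25.3% and 25.1%. Per length the stages did not separate in this way: 50% of the summed RPKM lay in 335 and 313 genes at spawning and in 310 and 318 at pinning. Genes that switched fully on or off were scarce and faint. Reads in both spawning libraries and none at pinning were found for 27 genes, with at most 8 reads, and the reverse for 28 genes, with at most 6.

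The change of a gene moved with its length across the whole transcriptome. Genes of 500 to 1000 bases had a median log2 change of 0.39, with 39.6% called higher and 14.9% lower. Genes over 5000 bases had a median of -0.43, with 5.31% higher and 51.3% lower. The trend stood in each of the 4 libraries: relative to a gene's mean over all 12 libraries, the shortest class sat at -0.26 and -0.30 in the spawning libraries and at 0.13 and 0.14 at pinning. Its part in the changes of single genes was not tested. A refit with a length offset, chosen after seeing the data, brought the class medians to between -0.01 and 0.09. Of the 4799 calls, 4085 stood in the same direction in that refit, and lists whose genes are short or long are given with their values from it.

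**Figure D2:**
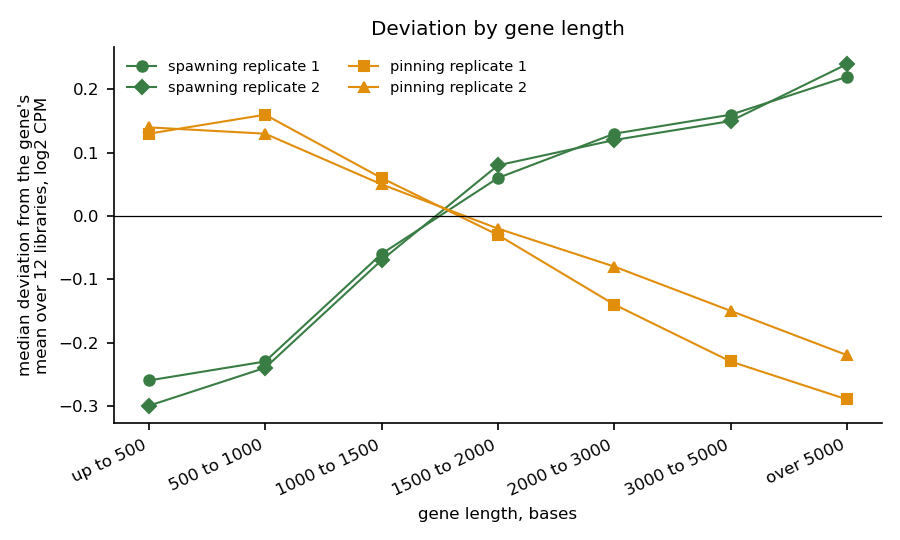
The x axis gives 7 classes of gene length in bases and the y axis the median deviation of log2 CPM from each gene's mean over the 12 libraries, with 1 line for each spawning and pinning library. The spawning lines climb from about -0.3 for the shortest genes to above 0.2 for the longest, and the pinning lines run the other way.

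Markers were read before the gene groups. Genes annotated as tyrosinases or lectins, families with members abundant in fruiting bodies, were listed by name. Over 10 genes, with none at 0, their summed level was 369 and 361 RPKM at spawning and 1530 and 2220 at pinning. The sum includes 222139, annotated as a mannose-binding lectin and not as a fruiting body type. It read 82 and 85.1 and then 54.4 and 57.5 RPKM and is among the lower genes of the list. Most of the pinning sum came from a gene annotated as a Xerocomus-type lectin, 194894, which went from 111 and 120 to 1164 and 1673 RPKM (log2 change 3.49, SE 0.74, edgeR adjusted p = 0.0053). Within the list 3 genes were higher and 3 lower, near the background in each direction, and its median of 0.41 became -0.17 without pinning replicate 2. Tyrosinase 191507 rose from 4.05 and 6.45 to 18.7 and 23.6 RPKM (log2 change 1.87, SE 0.48, edgeR adjusted p = 0.01), a call lost without spawning replicate 1, whereas tyrosinase 120050 fell from 13.2 and 16.2 to 5.42 and 5.2 RPKM. Laccase-1, laccase-2 and manganese peroxidase, marks of vegetative mycelium, went from a sum of 14600 and 15300 to 701 and 560 RPKM. Of all 12 laccases 7 were lower (58.3%, against 25.2% of all genes) and 1 higher (8.33%, against 29.3%). The higher one, laccase-7 (117501), rose from 7.79 and 8.95 to 33.6 and 44.4 RPKM (log2 change 2.08, SE 0.43, edgeR adjusted p = 0.003). Fruiting body markers were thus present in the compost at both stages, and their part in the changes described here was not tested.

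The highest rises belonged to genes whose product has no description. Gene 191017 went from 0.382 and 0.933 RPKM to 712 and 356 (log2 change 9.49, SE 1.68, edgeR adjusted p = 0.0025). Its immediate neighbour on the H97 reference genome, 191018, went from 2.29 and 4.26 to 2529 and 1386 RPKM (log2 change 9.08, SE 1.63, edgeR adjusted p = 0.0027). Both were near silence at spawning and among the abundant genes at pinning, with the same order of the pinning replicates. Their levels peaked at pinning: the mean of 191018 was 438 RPKM at the first flush and between 43.8 and 120 afterwards. Undescribed gene 140090 rose from 10.6 and 13.6 to 443 and 440 RPKM and stood higher still, at a mean of 1446 RPKM, at the first flush. Its neighbour on the reference is the kinetochore gene 175688, which rose as well.

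The deepest falls were also partly undescribed. Gene 137057 was among the abundant genes of spawning, at 1780 and 1875 RPKM, and read 2.86 and 2.35 at pinning (log2 change -9.58, SE 0.35, edgeR adjusted p = 5e-08). It stayed at or below a mean of 1.61 RPKM at every later stage. Genes 138066 and 138064, separated by 5 genes on the reference, fell from 321 and 223 RPKM to 1.0 and 0.638 and from 288 and 208 to 0.997 and 0.848. Gene 196228, one of the most abundant of spawning at 3908 and 4175 RPKM, fell to 225 and 174. Genes picked for the largest falls had to show no overlap between stages, so their separation is part of the choice.

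**Figure D3:**
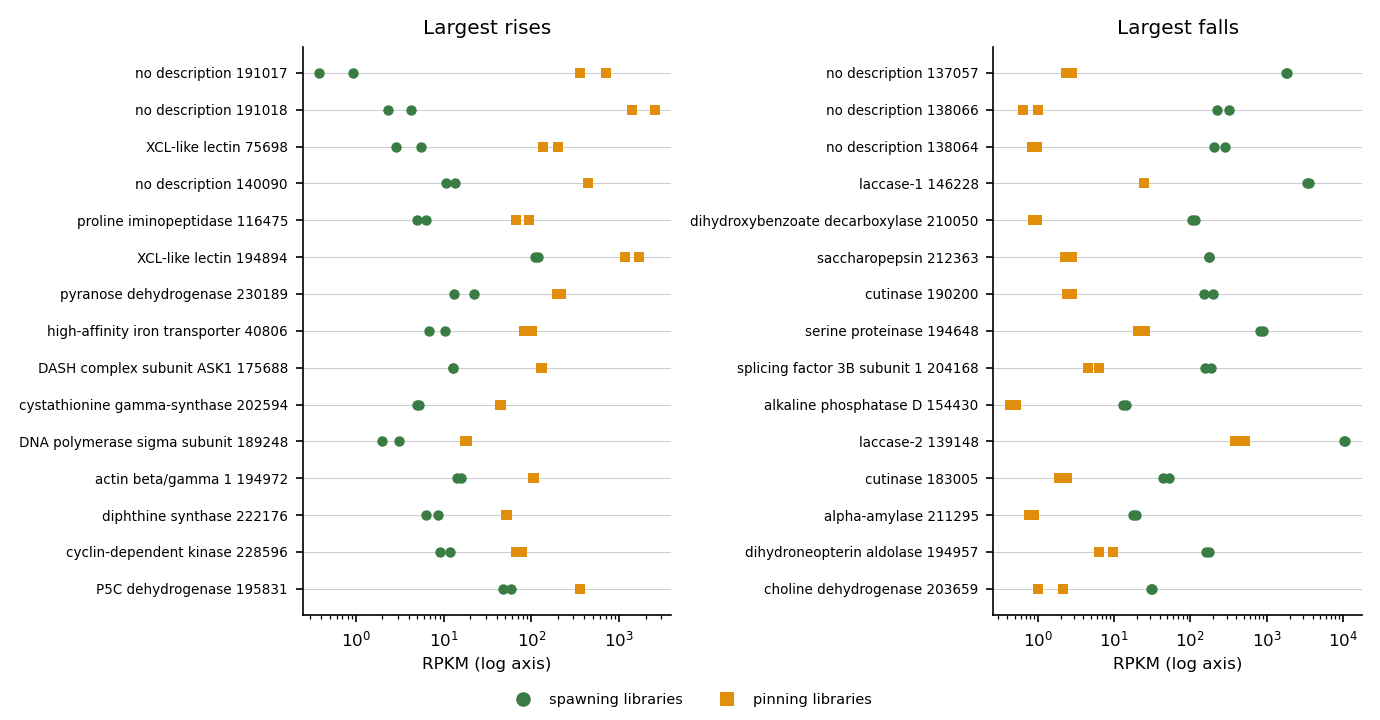
RPKM on a log axis for the 15 genes with the largest rises and the 15 with the largest falls (12 described and 3 undescribed in each direction), with circles for the 2 spawning libraries and squares for the 2 pinning libraries. Circles and squares are separate in every row because the genes were chosen without overlap. The replicates of a stage lie close together beside the distance between stages.

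Among described genes the risers came from scattered functions, with Xerocomus-type lectins among the larger rises. Lectin 75698 went from 5.45 and 2.82 to 137 and 203 RPKM (log2 change 5.22, SE 1.02, edgeR adjusted p = 0.0037). It has the same annotation as lectin 194894, given above (log2 change 3.49). The kinetochore component annotated as ASK1, which in yeast ties chromosomes to spindle microtubules, rose in gene 175688 from 12.9 and 12.9 to 131 and 127 RPKM (log2 change 3.20, SE 0.19, edgeR adjusted p = 8e-07). A high-affinity type iron transporter, 40806, rose from 10.3 and 6.84 to 102 and 83.2 RPKM (log2 change 3.31, SE 0.33, edgeR adjusted p = 2.8e-05). Iron handling was not raised throughout: ferric reductase 187504, which frees iron for uptake, fell from 58.5 and 56.6 to 14.5 and 16.6 RPKM, while reductase 120020 rose from 9.98 and 11.1 to 25.5 and 26. A pyranose dehydrogenase, 230189, a secreted sugar oxidoreductase, went from 22.1 and 13.2 to 219 and 195 RPKM (log2 change 3.42, SE 0.85, edgeR adjusted p = 0.011), a call lost without spawning replicate 2 (edgeR adjusted p = 0.073).

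Cutinases and some proteases were among the deepest falls. All 4 cutinases, esterases that cut the plant cuticle polyester, were lower, by -6.18 to -3.20 on the log2 scale; of the broader lipase, cutinase and esterase list 15 of 40 tested were lower and 6 higher. Cutinase 183005 fell from 53.4 and 44.2 to 1.89 and 2.41 RPKM (log2 change -4.63). Among proteases, serine proteinase 194648 fell from 906 and 816 to 25.5 and 20.7 RPKM (log2 change -5.35, SE 0.33, edgeR adjusted p = 1.6e-06). Tripeptidyl peptidase 193429, which clips tripeptides from protein ends, fell from 290 and 257 to 47.2 and 55.2 RPKM, and the aspartic protease annotated as saccharopepsin, 192428, from 772 and 823 to 73.6 and 71.2. The protease list as a whole did not lean one way, with 25 of 67 higher and 19 lower. Its risers included all 4 proline iminopeptidases, exopeptidases that release N-terminal proline, led by 116475, which went from 6.26 and 4.98 to 92.8 and 66.1 RPKM (log2 change 3.69, SE 0.73, edgeR adjusted p = 0.0036).

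Enzymes that cut cellulose were called about as often as all genes. Of 13 tested, 4 were higher (30.8%, against 29.3% of all genes) and 3 lower (23.1%, against 25.2%). Their median log2 change was 1.02, and their share of reads went from 0.153% and 0.145% to 0.236% and 0.289%. Beta-glucosidases, which finish the digestion to glucose, were 3 higher and 2 lower of 6: 195052 fell from 118 and 111 to 48.1 and 47.3 RPKM (log2 change -1.39), and 194744 rose from 98 and 96.9 to 250 and 257 (log2 change 1.25). None of 5 xylanases and none of 2 exoglucanases was called in either direction. Exoglucanase 190390 read 169 and 175 RPKM at spawning and 514 and 744 at pinning (log2 change 1.74, SE 0.84, edgeR adjusted p = 0.12). Xylanase 196181 read 32.2 and 40 and then 208 and 229 RPKM (log2 change 2.46, SE 0.89, edgeR adjusted p = 0.051). For both genes the pinning values lay above the spawning values without overlap. Both passed with DESeq2, at adjusted p = 0.045 and 0.015, and with the spread of the 4 libraries alone. Mannanase CEL4a, 192609, rose from 13.6 and 13.3 to 59.8 and 67.2 RPKM (log2 change 2.11), a call lost without either spawning replicate. Arabinofuranosidase 194576 fell from 443 and 468 to 95.4 and 125 RPKM (log2 change -2.18). The hemicellulose and pectin list had 9 of 26 higher (34.6%) and 6 lower (23.1%), also near the shares over all genes. Fewer were higher without spawning replicate 2. From the 4 libraries alone 14 were higher and 10 lower.

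Carriers of peptides and sugars were lower more often than higher. Of 14 tested oligopeptide and amino acid transporters 8 were lower and 2 higher, and of 20 sugar transporters 11 were lower and 4 higher, the 11 becoming 7 without spawning replicate 1 or pinning replicate 2. The most abundant peptide carrier, the proton-coupled transporter 195475, fell from 3873 and 4024 to 1769 and 1718 RPKM (log2 change -1.31, SE 0.22, edgeR adjusted p = 0.0005). A carrier annotated for inositol, 185281, fell from 241 and 263 to 45.4 and 40.6 RPKM (log2 change -2.68), while sugar transporter 191173 rose from 34 and 27.7 to 98.1 and 94. Metal and phosphate transporters were called less than the background in both directions, with 5 of 25 lower and 3 higher. Multidrug and ABC transporters, pumps that export drugs and cell-made compounds, were lower in 16 of 32 and higher in 3; their genes are long, at a median of 2620 bases, and with the length offset 12 were lower and 3 higher. Aquaporin 180549, a water channel, fell from 193 and 194 to 105 and 103 RPKM (log2 change -1.03), the one fall among 9 tested water channels.

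Glycolysis was the clearest rise in central metabolism. Of 15 tested genes 10 were higher and 1 lower, against backgrounds of 29.3% and 25.2%, with a median log2 change of 1.18 that was 1.32 with the length offset. Enolase (189297) rose from 105 and 93.9 to 411 and 466 RPKM (log2 change 2.01, SE 0.30, edgeR adjusted p = 0.00032). Triose-phosphate isomerase (195423) rose from 29.8 and 28.7 to 112 and 143 RPKM, and fructose-bisphosphate aldolase (192128) from 59.2 and 50.9 to 201 and 228. The rise began at the entry step, where hexokinase 194802 went from 26 and 23.6 to 75 and 75.3 RPKM (log2 change 1.47), and passed through glucose-6-phosphate isomerase, phosphofructokinase, phosphoglycerate kinase and phosphoglycerate mutase. Glyceraldehyde-3-phosphate dehydrogenase was divided by gene copy. The abundant copy, 138631, rose from 695 and 647 to 1570 and 1547 RPKM, and the minor copy, 153444, fell from 14.1 and 14.7 to 9.49 and 8.33, a call lost without spawning replicate 2 or pinning replicate 2. The last enzyme, pyruvate kinase (189950), read 715 and 696 and then 657 and 605 RPKM (log2 change -0.29, edgeR adjusted p = 0.12).

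Below pyruvate, 10 of 19 tested genes of fermentation and alternative respiration were higher and 5 lower, or 3 lower without pinning replicate 2. Pyruvate decarboxylase (193820), which commits pyruvate to acetaldehyde, rose from 70.2 and 76 to 302 and 276 RPKM (log2 change 1.85, SE 0.25, edgeR adjusted p = 0.00013). It reached a mean of 1054 RPKM after the first flush. Alcohol dehydrogenases were 4 higher and 2 lower of 6, with 194191 going from 121 and 134 to 476 and 356 RPKM and 211948 from 367 and 312 to 76 and 89.3. Mannitol dehydrogenase 194752, of the pathway that makes the main soluble carbohydrate of the mushroom, rose from 401 and 418 to 820 and 951 RPKM (log2 change 0.98, SE 0.22, edgeR adjusted p = 0.0028).

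Genes of routes that use fat and acetate were lower more often than higher. The same held for fatty acid synthesis, with 10 of 18 tested genes lower and 1 higher, or 7 and 1 with the length offset. The glyoxylate cycle lets fungi build sugar from acetyl-CoA; its isocitrate lyase (193793) fell from 671 and 685 to 249 and 228 RPKM (log2 change -1.64, SE 0.28, edgeR adjusted p = 0.00073), as did its malate synthase (188880) from 529 and 521 to 327 and 326 (log2 change -0.82). Of 41 tested genes of fatty acid breakdown 22 were lower and 6 higher, or 3 higher without pinning replicate 1. Carnitine acetyltransferase (179138), which moves acetyl groups between peroxisome and mitochondrion, fell from 210 and 224 to 23.1 and 36.7 RPKM (log2 change -3.0, SE 0.27, edgeR adjusted p = 9.1e-06). Peroxins, which build peroxisomes, were 8 lower and 2 higher of 12. The citrate cycle list showed no common direction, at 6 higher and 8 lower of 27: aconitase 77333 fell from 85.2 and 81.8 to 29.1 and 34.4 RPKM, and malate dehydrogenase 187815 rose from 378 and 343 to 786 and 849.

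Genes of storage carbohydrate and wall chitin were lower more often than higher. Of 16 tested genes of starch, glycogen and trehalose 11 were lower and 1 higher, or 9 and 2 with the length offset. Trehalose-phosphate synthase (66173), which makes the disaccharide reserve and stress protectant, fell from 85 and 90.5 to 30.3 and 36.1 RPKM (log2 change -1.54), and glycogen synthase (212415) from 74.5 and 79.1 to 43.3 and 39.9 (log2 change -1.02). Of 24 tested genes acting on chitin 13 were lower and 2 higher, including 4 of 5 chitin synthases; with the length offset 11 were lower and 2 higher, and the median of -0.70 became -0.41. The most abundant synthase, 191834, fell from 481 and 458 to 303 and 321 RPKM (log2 change -0.72, SE 0.12, edgeR adjusted p = 0.00047). Synthase 154388 fell from 40.3 and 35.9 to 3.66 and 3.68 (log2 change -3.50, SE 0.60, edgeR adjusted p = 0.0015). Chitin deacetylase 228408 went the other way, from 32.3 and 35.3 to 83.9 and 111 RPKM, a call lost without either spawning replicate or pinning replicate 2.

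In ergosterol synthesis, which makes the main fungal membrane sterol, 9 of 16 tested genes were lower and 3 higher, and the list's share of reads went from 1.27% and 1.36% to 0.741% and 0.769%. The falls lay at the entry and in the sterol-forming part of the pathway. Hydroxymethylglutaryl-CoA synthase (193269) fell from 3404 and 3768 to 2107 and 2230 RPKM (log2 change -0.86, edgeR adjusted p = 0.0031). Squalene monooxygenase (205454), lanosterol demethylase CYP51 (191124) and methylsterol monooxygenase (228680) were all lower, the last from 1241 and 1359 to 453 and 478 RPKM (log2 change -1.61, SE 0.36, edgeR adjusted p = 0.0041). The C-22 desaturase 189837, listed under other names but acting late in the same pathway, fell from 806 and 831 to 226 and 277 RPKM (log2 change -1.84). The 3 higher genes included diphosphomevalonate decarboxylase (196085), an earlier step, from 47.8 and 41.7 to 114 and 103 RPKM (log2 change 1.15). The other two were farnesyl diphosphate synthase (193864, log2 change 0.35), whose call was lost with DESeq2, RLE scaling, the length offset and any 1 library left out, and a scarce second CYP51 copy (73753), which rose from 2.26 and 3.68 to 8.79 and 11.8 RPKM, with an edgeR adjusted p = 0.052 without spawning replicate 1.

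**Figure D4:**
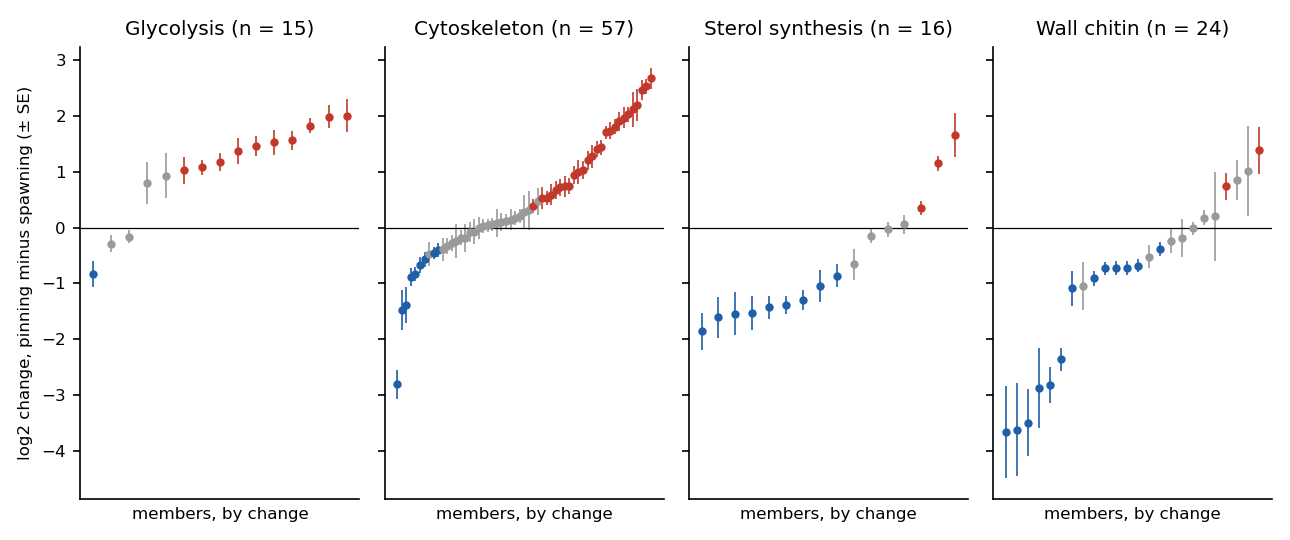
Log2 change from spawning to pinning with its SE for every tested member of 4 lists: glycolysis (15 genes), cytoskeleton and septins (57), sterol synthesis (16) and wall chitin (24), in red where called higher, blue where called lower and grey where not called. Glycolysis lies almost wholly above 0, sterol synthesis and chitin mostly below, and the cytoskeleton list spreads from about -3 to nearly 3.

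Nitrogen metabolism was rearranged by enzyme and showed no net direction, with 12 higher and 12 lower of 32 tested assimilation genes. NAD-dependent glutamate dehydrogenase (193606), which releases ammonium from glutamate, rose from 54.5 and 50.3 to 197 and 214 RPKM (log2 change 1.84, SE 0.14, edgeR adjusted p = 2.6e-06). The NADP-dependent enzyme (194435), which fixes ammonium, read 28.9 and 20.9 and then 8.36 and 9.67 RPKM (log2 change -1.60, edgeR adjusted p = 0.094), which passed with DESeq2 (0.044). The main glutamine synthetase (135514), the other entry of ammonium, read 1254 and 1353 and then 1959 and 2071 RPKM (log2 change 0.49, edgeR adjusted p = 0.014), a call lost without spawning replicate 1 or pinning replicate 2. Allantoate permeases, carriers of a purine breakdown product, were 3 lower and 1 higher of 5, with 188055 going from 150 and 148 to 19.9 and 23.7 RPKM.

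Arginine, proline and urea genes were among the movers. Delta-1-pyrroline-5-carboxylate dehydrogenase (195831), which completes proline breakdown to glutamate, rose from 58.9 and 47.4 to 358 and 361 RPKM (log2 change 2.63, SE 0.20, edgeR adjusted p = 2.4e-06). Ornithine aminotransferase (195122), which feeds the same intermediate from ornithine, fell from 2596 and 2479 to 957 and 745 RPKM (log2 change -1.71). Of the enzymes that make arginine, argininosuccinate synthetase (118981) rose from 61.9 and 48.2 to 156 and 147 RPKM and argininosuccinate lyase (190575) from 13.3 and 11 to 82.8 and 77 (log2 change 2.58). All 4 urease accessory proteins, which load nickel into urease, were higher by 0.60 to 2.28 on the log2 scale, while urease itself (183828) read 6.19 and 7.38 and then 4.54 and 4.74 RPKM (log2 change -0.68, edgeR adjusted p = 0.056), which passed with DESeq2 (0.036) and RLE scaling.

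Sulphur amino acid enzymes moved in opposite directions. Cystathionine gamma-synthase (202594), which makes cystathionine on the way to methionine, rose from 5 and 5.23 to 45.4 and 44.3 RPKM (log2 change 3.0, SE 0.25, edgeR adjusted p = 3.7e-06). Cystathionine gamma-lyase (209095), which cuts cystathionine to cysteine, fell from 1970 and 1999 to 269 and 329 RPKM (log2 change -2.86, SE 0.35, edgeR adjusted p = 0.00014). Homoserine O-acetyltransferase (203411) fell from 77.1 and 73.3 to 21.4 and 24 RPKM. Over the whole amino acid synthesis list 14 of 30 were higher and 10 lower.

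Most genes of the ribosome itself were higher. Cytosolic ribosomal proteins were higher in 72 of 87 tested genes and lower in 3, with a median log2 change of 1.28, and their share of reads went from 1.89% and 1.74% to 4.54% and 4.5%. These genes are short, with a median of 758 bases; with the length offset 72 were higher and 7 lower and the median was 1.04. Small-subunit protein S25e (191603) rose from 704 and 628 to 2884 and 2780 RPKM (log2 change 1.96), and S24e (182315) fell from 93.7 and 97.9 to 34.1 and 38. Ribosome biogenesis factors, which process ribosomal RNA in the nucleolus, were lower in 42 of 94 and higher in 16. With the offset 28 were lower, a share near that over all genes, and 12 higher, and the 16 became 9 or 10 without either spawning replicate or pinning replicate 1. The U3 nucleolar proteins were 18 lower and 3 higher of 28, with UTP20 (64634) falling from 9.25 and 7.91 to 1.5 and 2 RPKM.

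Respiratory chain subunits were higher in 46 of 59 tested genes and lower in 3 (median log2 change 0.82; with the length offset 43, 4 and 0.61, at a median length of 680 bases). The rise was uneven within complexes. The iron-sulphur subunit 194282 of NADH dehydrogenase went from 71.9 and 55.1 to 240 and 225 RPKM (log2 change 1.74), and the small ATP synthase subunit epsilon (133583) from 79.9 and 78.7 to 264 and 247 (log2 change 1.56). The catalytic ATP synthase beta subunit (190409) read 779 and 779 and then 675 and 675 RPKM (log2 change -0.34, edgeR adjusted p = 0.075), which passed with RLE scaling (0.048). Alternative oxidase (152135), which bypasses the later complexes, fell from 144 and 138 to 39.9 and 44.4 RPKM (log2 change -1.88, SE 0.62, edgeR adjusted p = 0.035), a call lost without any 1 library (0.088 to 0.14).

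In protein breakdown the proteasome core, the chamber that degrades ubiquitin-tagged proteins, was higher almost throughout. All but 1 of the 15 20S proteasome core subunits tested were higher, with the exception, alpha 6 copy 116935, lower. Of 23 regulatory 26S subunits 9 were higher and 3 lower. The whole list had 26 of 43 higher and 5 lower, with 24 and 3 under the length offset and 3 lower without spawning replicate 1. Core subunit 193671 rose from 59.3 and 43.9 to 176 and 174 RPKM (log2 change 1.63), whereas the proteasome adaptor ECM29 (66531) fell from 13.3 and 12.1 to 3.23 and 2.84. Autophagy genes were 6 higher and none lower of 9, among them the ubiquitin-like protein ATG12 (193349), from 24.8 and 14.6 to 58.2 and 63.4 RPKM (log2 change 1.5), and the ATG8-type gene 190754, from 236 and 236 to 556 and 483 (log2 change 1.01).

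Heat shock chaperones, which refold proteins, were among the genes lower at pinning. Of the hsp70 genes 5 were lower, by -1.51 to -0.72 on the log2 scale. The abundant copy 133986 went from 4688 and 4407 to 2998 and 2747 RPKM (log2 change -0.79). Another hsp70 gene, 190759, was not called. It read 872 and 858 and then 1166 and 1118 RPKM (log2 change 0.27, edgeR adjusted p = 0.16). The mitochondrial chaperonin GroEL (195187) fell from 790 and 784 to 256 and 271 RPKM (log2 change -1.71). The whole list had 16 of 42 lower and 6 higher, with 10 lower without pinning replicate 1 and 2 higher without spawning replicate 2.

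Genes that start, cap and supply actin filaments were mostly higher. The Arp2/3 complex starts branched actin filaments, and 5 of its 6 subunit genes were higher, with a median log2 change of 1.84. Subunit 3 (195819) rose from 24.7 and 22.9 to 156 and 145 RPKM (log2 change 2.53, SE 0.13, edgeR adjusted p = 2.5e-07), as did subunit 5 (192382) from 26.5 and 16.3 to 135 and 124 (log2 change 2.46). The exception was 1 of a pair of genes annotated as subunit 1. Gene 213426, whose annotation also carries another KEGG number, fell from 13.4 and 9.55 to 1.78 and 1.78 RPKM (log2 change -2.81). Gene 190402 rose from 126 and 120 to 197 and 192 RPKM. All 5 capping, cofilin and profilin genes, which cap, sever and supply filaments, were higher; cofilin (223913) went from 79.2 and 74.2 to 295 and 292 RPKM (log2 change 1.81). Actins were 4 higher and 1 lower of 6. Gene 194972 rose from 15.9 and 14 to 106 and 104 RPKM (log2 change 2.68), gene 201352 fell from 21.8 and 21.4 to 15.1 and 16.8 (log2 change -0.57), and the most abundant actin gene, 192120, rose from 507 and 546 to 796 and 871 (log2 change 0.53, edgeR adjusted p = 0.04). That last call was lost with RLE scaling and without any 1 library.

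Over the full cytoskeleton list, 26 of 57 tested genes were higher and 9 lower (31 and 9 with the length offset). Microtubule genes ranged widely. Gene 193285, annotated as the motor kinesin C1, rose from 107 and 76.6 to 398 and 354 RPKM (log2 change 1.91). The other gene with that annotation, 229385, was not called (log2 change 0.47, edgeR adjusted p = 0.12). Beta-tubulin 187460 fell from 12.4 and 8.93 to 5.26 and 3.61 RPKM (log2 change -1.39). Of the abundant tubulins, alpha-tubulin 135559 rose from 475 and 481 to 664 and 712 RPKM (log2 change 0.39), a call lost without any 1 library, and beta-tubulin 195658 read 811 and 748 and then 941 and 980 (log2 change 0.17, not called). Only uniquely mapped reads were counted, so values of near-identical actin and tubulin copies are uncertain. Of 14 tested small GTPases and their regulators, not only those that steer actin and polar growth, 8 were higher and 1 lower. A Ras family gene (149467) rose from 184 and 162 to 634 and 523 RPKM (log2 change 1.61), and Rac1 (147783) from 94.8 and 107 to 246 and 225. CDC42 (134270), which is not on that list, rose from 189 and 191 to 334 and 360 RPKM.

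Of 78 cell division genes 30 were higher and 10 lower, against 29.3% and 25.2% of all genes; without pinning replicate 2 the 30 became 19. The risers included genes annotated as a cyclin-dependent kinase, a cyclin and kinetochore proteins. A cyclin-dependent kinase, 228596, rose from 11.7 and 9.03 to 66 and 77.7 RPKM (log2 change 2.66, SE 0.19, edgeR adjusted p = 1.5e-06). The abundant cyclin annotated as PLC1 (69512) rose from 615 and 571 to 1501 and 1647 RPKM (log2 change 1.28). None of 4 mitotic cyclins was called. Kinetochore genes, without the ASK1 gene 175688 given above, were 6 higher and 1 lower of 9, with Spc25 (194960) going from 11.3 and 12 to 37 and 41.9 RPKM. Histone proteins, which package DNA, were higher in 10 of 15 and lower in none, and histone H4 (139588) rose from 218 and 228 to 568 and 537 RPKM (log2 change 1.17). This count was not made with the length offset. Histone 3 (139997) was not called (log2 change -0.03), and with the length offset it was called lower (-0.38, edgeR adjusted p = 0.034).

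Regulatory genes changed one by one. The light receptor annotated as white collar 1 (207720), which in Neurospora senses blue light, fell from 72.1 and 74.6 to 12.7 and 11.1 RPKM (log2 change -2.76, SE 0.18, edgeR adjusted p = 1.1e-06), then stayed at means of 13.1 to 16.4 RPKM at all later stages. Mating-type homeodomain gene HD1 (213733), 1 of the pair of homeodomain proteins that control the heterokaryon, fell from 8.15 and 10.8 to 2.89 and 3.63 RPKM (log2 change -1.67, SE 0.34, edgeR adjusted p = 0.0015). Its partner HD2 (189393) read 10.4 and 11.6 and then 15.7 and 17.3 RPKM (log2 change 0.46, edgeR adjusted p = 0.053), and it passed under library totals (0.02). A GATA-type factor, 228373, fell from 26.7 and 25.2 to 6.06 and 6.77 RPKM (log2 change -2.15). Of 54 transcription factors 14 were higher and 19 lower, with 11 lower without pinning replicate 1, and the list's median of -0.10 turned to 0.03 under library totals and 0.09 with the length offset.

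Signalling kinases divided in the same way. A MAP kinase, 192446, rose from 54.3 and 45.3 to 216 and 214 RPKM (log2 change 1.98, SE 0.15, edgeR adjusted p = 2.5e-06), whereas the stress-type p38 kinase 41003 fell from 593 and 642 to 311 and 309 (log2 change -1.12, SE 0.16, edgeR adjusted p = 0.00012). The MAP kinase list had 7 higher (33.3%) and 5 lower (23.8%) of 21, near the 29.3% and 25.2% over all genes. Fewer of each were called with any 1 library left out. G protein alpha subunits, which couple receptors to cAMP, were 4 lower and 1 higher of 12, with 78039 falling from 35.4 and 32.6 to 14.3 and 14.8 RPKM. The G gamma subunit 190265 rose from 26.7 and 20 to 95.4 and 100 RPKM (log2 change 1.94). In RNA silencing, which cuts double-stranded RNA into guides, a Dicer (202619) rose from 14.1 and 13.5 to 36.4 and 38.5 RPKM and argonaute 190957 from 72.6 and 62.3 to 155 and 191. That list, of long genes, had 6 higher and 4 lower of 15, with 10 and 2 under the length offset and 3 higher without spawning replicate 2 or pinning replicate 2.

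**Figure D5:**
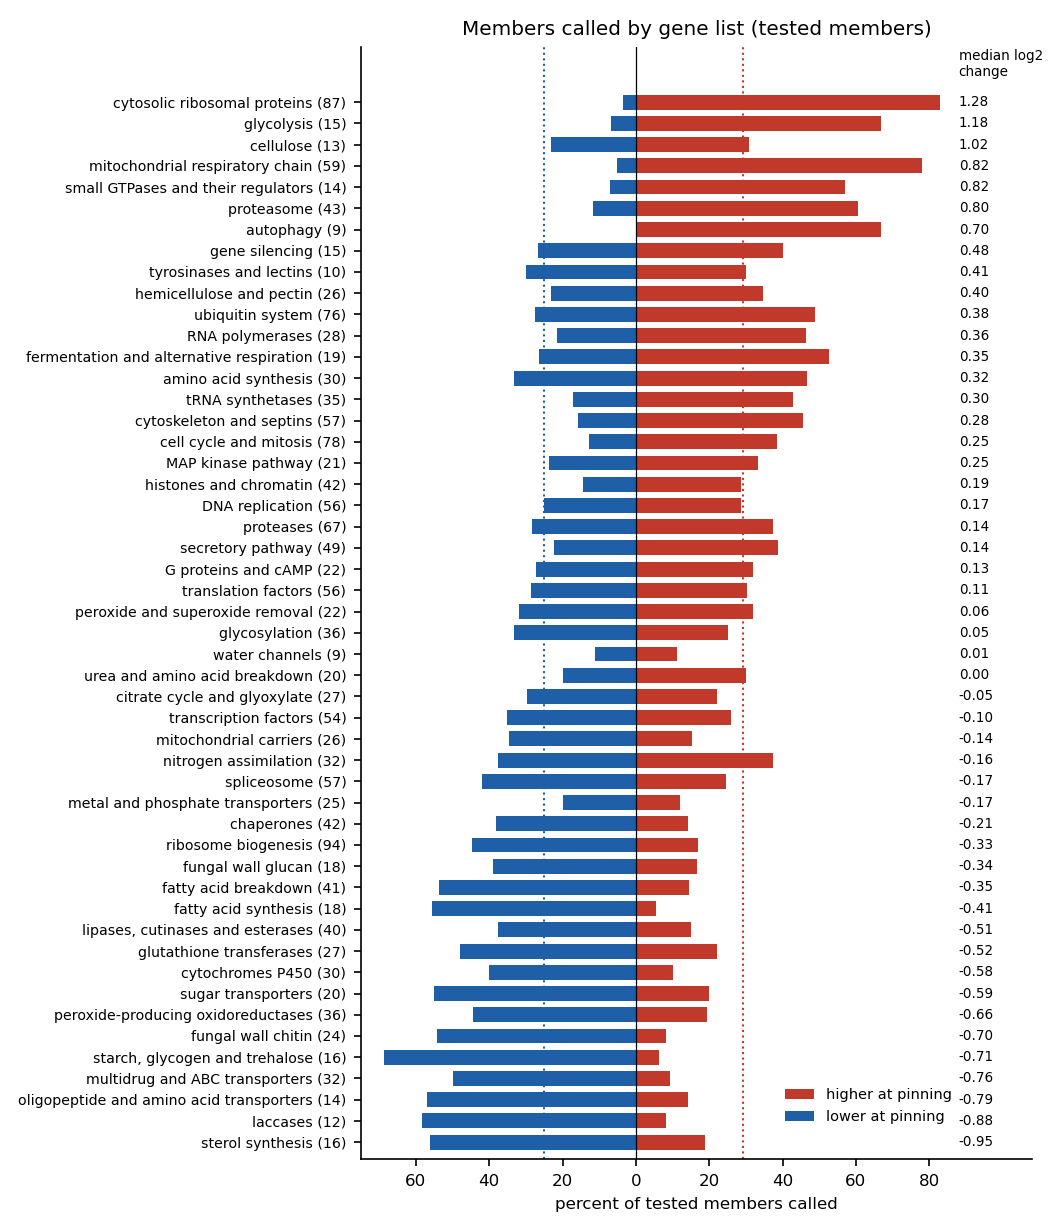
Percent of the tested members of each gene list called higher (to the right, red) and lower (to the left, blue) at pinning, for lists with at least 9 tested genes; dotted lines mark the shares over all tested genes, 29.3% higher and 25.2% lower, and the median log2 change of the list stands at the right. Ribosomal proteins and the respiratory chain reach farthest to the right, and starch, glycogen and trehalose farthest to the left.

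Among the most abundant genes of the compost mycelium some rose, some fell and others did not pass the test. Hydrophobins coat aerial hyphae and make them water-repellent. Hydrophobin 136569, the most abundant at pinning, went from 14278 and 13513 to 32695 and 31496 RPKM (log2 change 1.08, SE 0.16, edgeR adjusted p = 0.00016). The most abundant at spawning, 193057, read 17929 and 19525 and then 17744 and 16637 RPKM (log2 change -0.26, edgeR adjusted p = 0.49). Hydrophobin 193052 went from 4208 and 4624 to 2923 and 2592 (log2 change -0.81, edgeR adjusted p = 0.033), a call lost without any 1 library. Undescribed genes 209977, 138076 and 75975 rose together: 209977 from 1542 and 1359 to 3408 and 3306 RPKM, 138076 from 1297 and 1272 to 3258 and 3143, and 75975 from 1293 and 1246 to 3086 and 2881, with log2 changes of 1.08, 1.18 and 1.10. Of 27 glutathione transferases, which detoxify reactive compounds, 13 were lower and 6 higher. Gene 193903 went from 919 and 904 to 105 and 115 RPKM (log2 change -3.18), and 193539 from 730 and 665 to 1282 and 1642 (log2 change 0.94, edgeR adjusted p = 0.044), a call lost with RLE scaling, the length offset and any 1 library left out.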

How the data were processed

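RNA-seq of colonised compost was deposited as 1 table per library with 2 units. The counts are uniquely mapped reads per gene as deposited by the authors, per the file headers, and genes missing from a table were set to 0. The RPKM values are the authors' own, deposited beside the counts, and equal the count scaled by gene length and by the library's unique reads. No source used here gives the aligner, genome build or strand, so near-identical copies and overlapping genes are uncertain. The genes carry locus numbers of strain H97, which is not A15; 9440 of 9502 (99.3%) matched the RefSeq table of the H97 assembly, used only for names and neighbours.

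Counts of all 12 libraries were fitted by stage with edgeR 4.0.16 in R 4.3.3 (TMM, filterByExpr with a minimum count of 10 and total of 15, robust quasi-likelihood test, Benjamini-Hochberg over 8814 genes, threshold 0.05), contrast pinning minus spawning. The scripts were tested on simulated data. A permutation of 2 against 2 libraries cannot go below p = 0.333, and none was run. At 7.27 to 9.34 M (mega) reads per library, genes of a few reads are poorly measured. Descriptions are nr names or KEGG texts; KEGG matches above an E-value of 1e-10 (343) were not used.

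Named genes are the 12 described and 3 undescribed genes with the largest rise and fall at 20 CPM or more with no overlap between stages, the most changed and most abundant members of each list, the 10 most abundant genes per stage, and central pathway steps. The 56 lists (1736 genes) are words in the descriptions. Members, lists and rules were chosen with earlier results of these data known. List patterns were corrected after the descriptions were seen, texts holding only an enzyme number were blanked after a first set of named genes was seen, which removed 2 of them, and smaller families within lists were split off after values were seen. No list was tested as a set. Alternatives were DESeq2 1.42.0, RLE scaling, library totals, no filter, 4 or 10 libraries, a replicate block, limma 3.58.1 on log2(RPKM + pseudocount) with pseudocounts of 1 and 0.1, each library left out, a test against 1.5-fold, and a gene length offset chosen after seeing the data. With 1 library left out, the lone library of a stage was taken to vary like the other stages.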

Additional observations from a re-analysis of the deposited data

How the results depend on the processing

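The 2579 genes higher and 2220 lower at pinning were 2330 and 2269 with DESeq2, 2432 and 2414 with RLE scaling, 3001 and 1819 with library totals alone, 2604 and 2160 without a filter, 2938 and 2857 from the 4 libraries alone and 2535 and 2197 from 10 libraries without the first flush. With limma on log2 RPKM they were 3030 and 1812 (pseudocount 1) and 3083 and 1801 (pseudocount 0.1). Leaving out 1 library gave 1995 to 2137 higher and 1579 to 1751 lower. The length offset, chosen after seeing the data, gave 2502 and 2161, with 11 of the 4799 calls changing sign. Against a 1.5-fold change 1366 were higher and 1043 lower. Upward calls were 53.7% of all calls and 50.2% to 63.1% under the other settings. With the replicate number as a block the counts were 2539 and 2186. Deviations of same-numbered spawning and pinning libraries correlated at 0.0363, and over all pairs of stages at -0.239 to 0.204. Such correlations cannot show whether same-numbered libraries shared a bed or day, which the labels do not give. Of 157 called genes chosen by the naming rule, 135 were called under each of the 14 settings that tested them. Of the genes chosen by the naming rule those that changed sign were all uncalled in the main fit. Gene 71560 went from 0.18 to -0.18 with the length offset. Ubiquitin C 133168 went from -0.09 to 0.04 under library totals and both limma fits, and read -0.17 to 0.00 with 1 library left out. Thioredoxin 132659 went from -0.02 to 0.11 under totals and limma, and read -0.06 to 0.02 with 1 library left out. Histone 3 139997 went from -0.03 to 0.11 under totals and limma, and read -0.05 to 0.00 with 1 library left out. Ribonucleotide reductase 223838 went from 0.03 to -0.02 with DESeq2 and RLE, and read -0.03 to 0.1 with 1 library left out. The length offset kept the sign of 132659 and 139997 but called both lower, at -0.31 and -0.38 (edgeR adjusted p = 0.048 and 0.034). Over the other list members with an adjusted p under 0.15, the length offset turned 120762 to 0.15, 151091 to -0.05, 187813 to 0.04, 188941 to 0.07, 195535 to -0.06, 202190 to 0.02, 202225 to 0.08, 204107 to 0.05, 206128 to 0.15, 214780 to 0.32, 224380 to 0.05, 229511 to 0.00, 69603 to -0.06 and 70129 to 0.02, all from changes of 0.25 to 0.41 in size. The cause was not tested.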

Other observations

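Large changes were searched for in runs of adjacent genes on the H97 reference. Adjacent pairs were not counted over all genes, and no number expected from random order was worked out. Runs of at least 3 adjacent genes that all changed past 4-fold in the same direction numbered 1 higher and 2 lower, with 9 genes in all. The run of described genes was lower and holds genes of lactate and propionate use. L-lactate dehydrogenase 192811 fell from 82.1 and 79.6 to 15.4 and 19.8 RPKM (log2 change -2.33, edgeR adjusted p = 3.1e-06). Methylisocitrate lyase 192813, which ends the route that clears propionate, fell from 68.3 and 71.2 to 5.56 and 7.69 RPKM (log2 change -3.53, edgeR adjusted p = 4.4e-07). The next gene, 192814, carries the same annotation and fell from 81.8 and 79.1 to 15.4 and 20.7 RPKM. A lactate dehydrogenase beyond it, 192815, fell by less, from 94.7 and 98.1 to 45.9 and 48.3 RPKM (log2 change -1.17). The other runs hold undescribed genes: 194811, 121097 and 194814 were higher, by 2.10, 2.14 and 2.24 on the log2 scale, and 116513, 116514 and 116515 were lower, at -2.13, -2.20 and -2.22. Laccase-1 and laccase-2 are also neighbours.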
